A study of Mus musculus with 4 samples.

Results

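Axin2 and 7 other genes that restrain Wnt/beta-catenin signalling were followed through 4 messenger RNA libraries of sorted mouse embryonic dermal cells. The 8 genes are Axin2, Nkd1, Nkd2, Notum, Znrf3, Rnf43, Apcdd1 and Sp5. They were taken by gene symbol, and all 8 had 1 entry in every table, out of 33833 named gene units in the whole series. The cells were sorted from the ventral foot skin of E17.5 embryos and the dorsal back skin of E14.5 embryos, and the labels name the reporter Axin2-LacZ for all of them, as pos or neg. Each skin gave 1 library with the positive and 1 with the negative label, so each of the 4 groups holds 1 library and no test over replicates exists. The study asked whether dermal Wnt signalling contributes to what the mesenchyme of each body site expresses.

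The reporter limits what Axin2 itself can show. In the widely used allele of this name lacZ interrupts the Axin2 gene, so a carrier has fewer intact copies. The sources used here do not say whether the embryos carried that allele, in how many copies, or how many embryos were pooled. Because the sort was made on this reporter, the Axin2 transcript between sorted fractions serves as a check of the labels and not as a finding. In the foot it did not follow the labels, at 9.65 FPKM in the library labelled positive and 12.9 FPKM in that labelled negative, with overlapping bounds. In the back it stood higher under the positive label, at 4.49 against 3.13 FPKM, with bounds that overlapped after scaling. Libraries are therefore named by their label only, and each direction between sorted fractions rests on it. Skin site and embryonic stage differ together whenever foot is set against back, and the 2 cannot be told apart. In bulk libraries, fewer cells of a type and less RNA per cell cannot be told apart either.

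In canonical Wnt signalling, ligand bound to Frizzled and Lrp5 or Lrp6 stops a cytoplasmic complex from destroying beta-catenin, which then acts with TCF/LEF factors on target genes. Among those targets are inhibitors of the pathway, which close a negative feedback loop. Axin2 is a scaffold of the destruction complex, and the naked cuticle proteins Nkd1 and Nkd2 bind Dishevelled. Znrf3 and Rnf43 are membrane ubiquitin ligases that remove Frizzled receptors, Apcdd1 is a membrane glycoprotein that binds Wnt and Lrp5, Notum is a secreted enzyme that strips the lipid from Wnt ligands, and Sp5 is a zinc finger transcription factor. In embryonic skin, dermal Wnt signalling is known for its part in hair follicle formation.

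Levels are given in FPKM, mapped fragments scaled for transcript length and library depth, with the lower and upper bound that the authors deposited for each value. The bounds cover counting and read assignment within 1 library, and the sources used here do not give their confidence level. The foot libraries were shallower by these bounds. The median half-width over coding genes of at least 5 FPKM was 22.8% of the value in the foot library labelled positive, against 8.89% and 9.84% in the back, with the foot library labelled negative in between. FPKM of most genes also shifted between libraries. Ratios were therefore computed after division by median-ratio factors, which removed shifts of -0.24 (foot positive against negative), 0.23 (back positive against negative), 0.22 (foot against back, positive label) and 0.69 (foot against back, negative label) on the log2 scale. A ratio is log2 of (scaled FPKM + 1) over (scaled FPKM + 1), and the value after ± is a half-width that combines the bounds of both libraries. A gene counts as higher or lower when it is at least 2-fold apart on this scale and its larger FPKM is at least 5.

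Markers were read to see which cells the libraries held. All 8 dermal fibroblast markers stood at 1 FPKM or more in every library, with sums of 7141 and 6714 FPKM in the foot and 4355 and 3070 FPKM in the back, positive label first here and below. Within the foot sums Col1a2, at 2338 and 716 FPKM, and Col1a1, at 262 and 713 FPKM, went opposite ways. Of the 7 keratinocyte markers, 6 (positive label) and 7 (negative label) were listed at 0 in the foot. In the back 4 had entries of their own, which summed to 6.23 and 4.04 FPKM. The other 3 (Krt5, Krt14 and Krt15) were given only inside merged keratin entries, at 25.6 and 6.12 FPKM under the positive label and 6.26, 4.47 and 4.15 FPKM under the negative label. The 5 endothelial markers summed to 0.979 and 0.461 FPKM in the foot, where Pecam1, Cdh5 and Cldn5 were listed at 0, and to 4.05 and 2.96 FPKM in the back. The 6 mast cell markers summed to 2.17 and 265 FPKM in the foot and 24.6 and 83.9 FPKM in the back, with Mcpt4 and Fcer1a at 0 in every library. The 6 leukocyte markers summed to 0.788 and 2.71 FPKM in the foot and 2.54 and 14.6 FPKM in the back, and Ptprc was at 0 in the foot. Mast cell and leukocyte sums were thus lower under the positive label in both skins. The foot leukocyte markers were low and mixed. Tyrobp (0 and 1.92 FPKM), Fcer1g (0 and 0.553 FPKM) and Laptm5 (0 and 0.232 FPKM) were lower under the positive label. Csf1r (0.588 and 0 FPKM) and Cd68 (0.200 and 0 FPKM) were higher. The 3 pericyte markers summed to 12.8 and 13.6 FPKM in the foot and 9.69 and 15.1 FPKM in the back, within which Rgs5 stood at 7.53 and 4.74 FPKM in the foot against 0.283 and 0.199 FPKM in the back. Of 6 skeletal muscle markers, 5 were measured. They summed to 6.32 and 13.6 FPKM in the foot and 7.31 and 6.41 FPKM in the back, with Mylpf highest in each library. The 6 Schwann cell and melanocyte markers summed to 2.59 and 1.09 FPKM in the foot and 0.746 and 0.614 FPKM in the back. The part of all these cells in the results below was not tested.

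**Figure D1:**
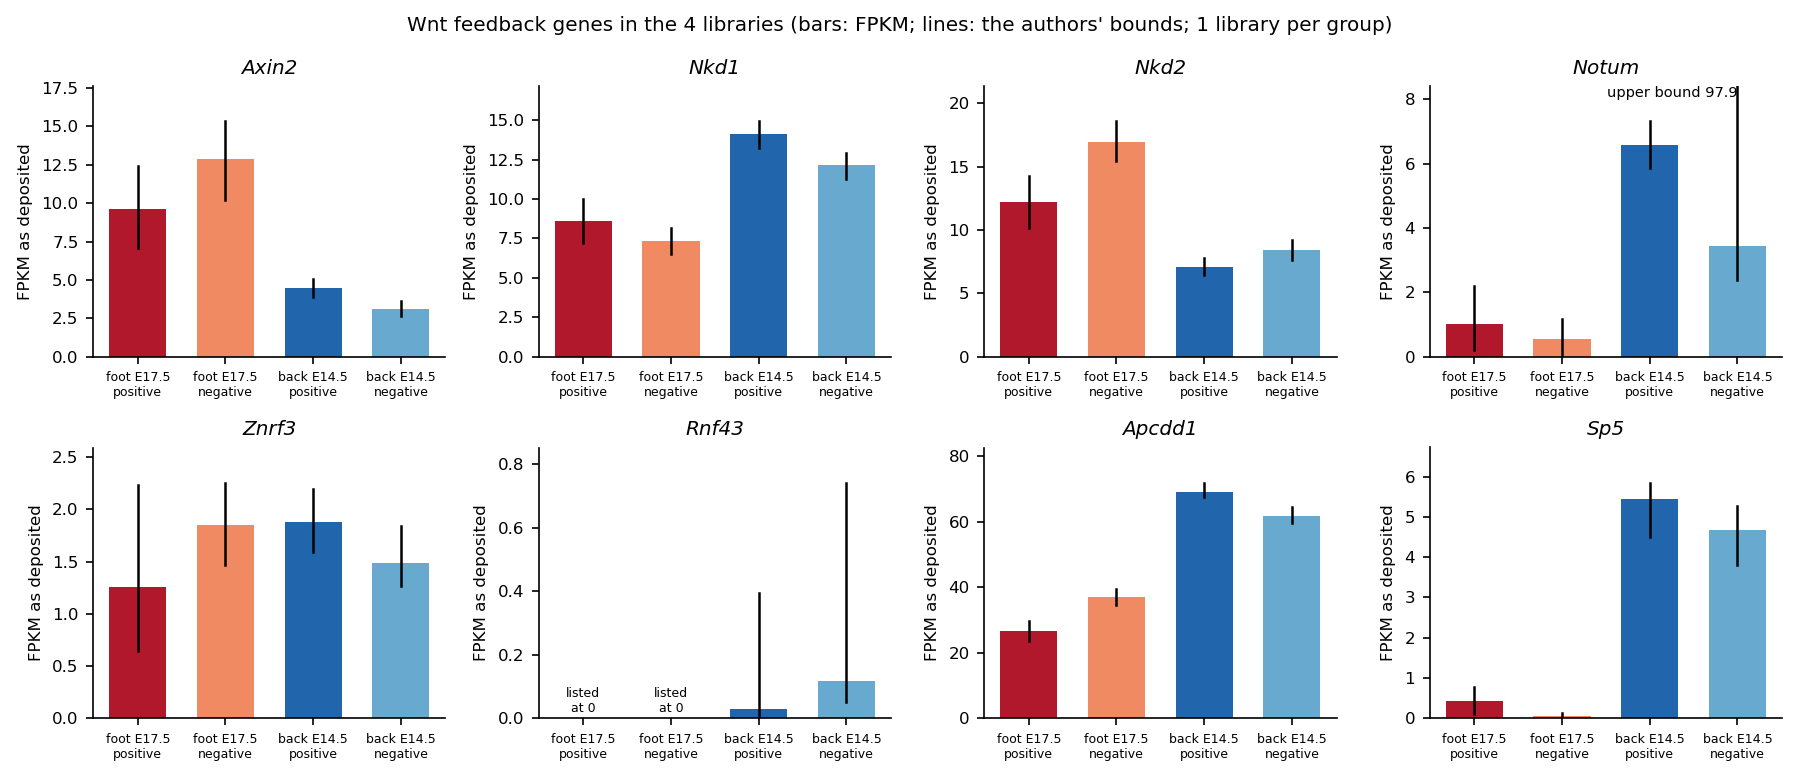
FPKM as deposited of each of the 8 genes (vertical axes, each from 0) in the 4 libraries (horizontal axes), with bars for the values and black lines for the authors' bounds. Axin2 and Nkd2 stood higher in both foot libraries, and Nkd1, Apcdd1, Notum and Sp5 stood higher in both back libraries.

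Axin2, at chr11:108781663-108812097 (mm9), stood at 9.65 FPKM (bounds 7.10 to 12.5) under the positive label and 12.9 FPKM (10.2 to 15.3) under the negative label in the foot. The back values were 4.49 FPKM (3.89 to 5.09) under the positive label and 3.13 FPKM (2.63 to 3.64) under the negative label. The foot values lay above both back values, and the foot fractions overlapped, with the lower value under the positive label. Among 17728 protein-coding genes, Axin2 lay above 82.7% and 84.4% in the foot, positive label first. It lay above 74.3% and 71.7% in the back, so its rank within a library, which no scaling touches, was also higher in the foot. Between foot and back the log2 ratio was 0.77 ± 0.40 for the positive label and 1.17 ± 0.33 for the negative label. The second value passed the 2-fold threshold and the first did not, and with upper quartile scaling the second, at 0.91, did not pass either. In the back library labelled positive, an unnamed entry of 363 bases at 2.73 FPKM was listed inside Axin2. Its part in the Axin2 values was not tested.

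Nkd1 and Nkd2, the paralogous Dishevelled binders, stood on opposite sides between the skins. Nkd1, at chr8:91045243-91118786 (mm9), stood at 8.62 FPKM (7.23 to 10.0) and 7.35 FPKM (6.52 to 8.18) in the foot, positive label first. The back values were 14.1 FPKM (13.3 to 14.9) and 12.1 FPKM (11.3 to 12.9). No foot value reached a back value within the bounds, and the log2 ratios of foot against back were -0.85 ± 0.22 for the positive label and -1.27 ± 0.17 for the negative label. Without scaling the second ratio was -0.65, which is under 2-fold. An unnamed entry of 51 bases at 163969 FPKM was listed inside Nkd1 in the foot library labelled negative. The back library labelled positive had entries of 312 and 337 bases at 2.62 and 2.38 FPKM. Their part in the Nkd1 values was not tested.

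Nkd2, at chr13:73955982-73985079 (mm9), stood at 12.2 FPKM (10.2 to 14.3) and 16.9 FPKM (15.4 to 18.6) in the foot, positive label first. The back values were 7.10 FPKM (6.46 to 7.76) and 8.41 FPKM (7.64 to 9.19). Both foot values were above both back values as deposited, but after scaling the foot library labelled positive and the back library labelled negative overlapped. The log2 ratios of foot against back were 0.51 ± 0.25 (positive label) and 0.30 ± 0.17 (negative label). With upper quartile scaling they fell to 0.15 and 0.02, above 0 but smaller than these half-widths. Whether Nkd2 differed beyond its half-widths thus depends on the scaling. Reads at this gene may be split between entries. An unnamed assembled entry over its low-coordinate end, chr13:73956019-73958940 (mm9), stood at 17.7 FPKM in the foot library labelled positive. Unnamed entries over the same end, of other lengths, stood at 2.98 FPKM in the foot negative, 3.50 FPKM in the back positive and 2.38 FPKM in the back negative library. A further short one stood at 16.4 FPKM in the back positive library, and the Gm8062 entry inside the gene stood at 5.10 to 9.55 FPKM. How these reads bear on the Nkd2 values was not tested.

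The order of the pair differed between the skins. In both foot libraries Nkd2 stood above Nkd1, with bounds that did not overlap (10.2 against 10.0 FPKM at the nearest under the positive label). In both back libraries Nkd1 stood above Nkd2, also without overlap.

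The receptor-removing ligases were low throughout. Znrf3, at chr11:5176327-5344850 (mm9), stood at 1.26 FPKM (0.643 to 2.23) and 1.85 FPKM (1.46 to 2.25) in the foot, positive label first. It stood at 1.88 FPKM (1.59 to 2.20) and 1.48 FPKM (1.27 to 1.84) in the back. All neighbouring values in this order overlapped, scaled or not, and the sign of the ratio between foot and back under the negative label turned with the scaling (-0.23 scaled, 0.20 as deposited). Unnamed entries of 51 to 332 bases were also listed inside Znrf3 in the libraries other than the back library labelled negative. Rnf43, at chr11:87476224-87549041 (mm9), was listed at 0 in both foot libraries. It stood at 0.0299 FPKM (0 to 0.394) and 0.118 FPKM (0.0518 to 0.742) in the back libraries labelled positive and negative, so no ratio is given.

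Apcdd1 was the most abundant of the 8 genes per length in every library. It stood at 26.6 FPKM (23.6 to 29.6) and 37.0 FPKM (34.5 to 39.6) in the foot, positive label first, and at 69.0 FPKM (67.6 to 71.9) and 61.9 FPKM (59.5 to 64.6) in the back. The foot and back groups did not overlap. The log2 ratios of foot against back were -1.56 ± 0.16 for the positive label and -1.40 ± 0.11 for the negative label. Without scaling the second was -0.73 and no longer past 2-fold. Short unnamed entries were listed inside this gene too, of 131 and 182 bases at 545 and 123 FPKM in the foot library labelled positive and of 100 and 311 bases at 535 and 30.0 FPKM in that labelled negative. The back library labelled positive had entries of 124 and 218 bases at 86.4 and 12.8 FPKM, and that labelled negative had 0. Their part in the Apcdd1 values was not tested. Apcdd1 made up 44.5% and 48.3% of the summed FPKM of the 8 genes in the foot, and 63.5% and 64.9% in the back.

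Notum, at chr11:120515102-120522489 (mm9), was near the limit of measurement in the foot, at 1.02 FPKM (0.226 to 2.21) under the positive label and 0.564 FPKM (0.0431 to 1.17) under the negative label. If each bound is taken as 2 standard deviations, the lower bounds imply about 6.60 and 4.69 fragments. The back values were 6.59 FPKM (5.87 to 7.31) under the positive label and 3.45 FPKM (2.38 to 97.9) under the negative label. Neither foot library reached the bounds of a back library. The upper bound of 97.9 FPKM stands apart from all others, and in that library an unnamed locus of 4.87 FPKM was listed inside the Notum interval, at chr11:120515105-120515895 (mm9). Foot against back, the log2 ratio was -2.06 ± 0.68 for the positive label, a 7.51-fold difference between scaled values whose nearest bounds were 3.09-fold apart. Under the negative label it was -1.89 ± 2.52, with the larger value below 5 FPKM, and was not counted.

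Sp5 had wider log2 ratios between the skins than the other 7 genes under both labels, except with the midpoint of the bounds under the negative label, where Notum had -5.45 and Sp5 -2.68. At chr2:70312980-70315786 (mm9), it stood at 0.433 FPKM (0.0976 to 0.781) and 0.0457 FPKM (0 to 0.124) in the foot, positive label first. The back values were 5.44 FPKM (4.49 to 5.84) and 4.68 FPKM (3.80 to 5.26). The back fractions overlapped each other, and both lay well above the foot. The nearest bounds of the libraries labelled positive were 6.69-fold apart after scaling, and those of the libraries labelled negative 49.4-fold. Both foot values were near the limit of measurement. The lower bound implies about 6.67 fragments under the positive label and reaches 0 under the negative label, so these folds are not firm sizes. The log2 ratios were -2.30 ± 0.37 and -2.74 ± 0.21, of which the second was not counted because its larger value was below 5 FPKM. Sp5 lay above 77.1% and 77.3% of coding genes in the back libraries labelled positive and negative, and above 50.3% and 42.0% in the foot.

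Sp5 and Axin2 are both targets of the pathway, and their promoters are shown because the genes stood on opposite sides between the skins. Each sequence is the 250 bases before the RefSeq gene start on GRCm38.p6, 5′ to 3′ on the gene's strand, Sp5 at chr2:70474673-70474922 and Axin2 at chr11:108920099-108920348, both on the plus strand. Capitals mark the TCF/LEF core letters CTTTGA or CTTTGT or their reverse complements TCAAAG and ACAAAG.
Sp5: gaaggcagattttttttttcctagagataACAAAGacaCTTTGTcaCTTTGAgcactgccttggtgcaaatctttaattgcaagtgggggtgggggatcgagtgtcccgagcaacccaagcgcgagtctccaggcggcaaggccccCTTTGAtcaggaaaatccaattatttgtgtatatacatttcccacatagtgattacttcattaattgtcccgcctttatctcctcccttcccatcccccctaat
Axin2: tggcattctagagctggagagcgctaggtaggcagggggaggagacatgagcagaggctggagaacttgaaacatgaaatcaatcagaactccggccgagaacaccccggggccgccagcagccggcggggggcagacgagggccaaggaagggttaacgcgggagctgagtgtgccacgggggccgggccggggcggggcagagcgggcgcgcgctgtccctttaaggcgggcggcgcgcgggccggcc
The Sp5 window held 4 matches, which begin 221, 212, 204 and 104 bases before the start and do not overlap each other. At least 4 matches were found in 31 of 32851 windows of the same length (0.0944%), and at least 1 in 27.6%. The Axin2 window held none of these letters, and neither did those of Nkd1, Nkd2 and Rnf43. The Axin2 entry lists 7 transcription start identifiers, and sequence outside its window was not searched. A window was at hand for 5 of the 8 genes, and a match describes letters only, not binding.

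Within a library the levels per length could be ordered without any scaling. In the foot the order was Apcdd1, Nkd2, Axin2 and Nkd1 under both labels, followed by Znrf3, Notum, Sp5 and Rnf43. Under the positive label Nkd2 and Axin2, Axin2 and Nkd1, Znrf3 and Notum, and Notum and Sp5 overlapped within their bounds, while under the negative label only Notum and Sp5 and Sp5 and Rnf43 did. In the back library labelled positive the order was Apcdd1, Nkd1, Nkd2, Notum, Sp5, Axin2, Znrf3 and Rnf43, with overlap between Nkd2 and Notum and between Sp5 and Axin2. Under the negative label Sp5 and Notum changed places, and both Sp5 with Notum and Notum with Axin2 overlapped. Axin2 thus had rank 3 of 8 in both foot libraries and rank 6 in both back libraries.

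The level of a gene divided by that of Axin2 in the same library is also free of scaling. For Apcdd1 this ratio was 2.76 and 2.87 in the foot, positive label first, against 15.4 and 19.8 in the back. For Nkd1 it was 0.893 and 0.571 in the foot, against 3.14 and 3.88 in the back. Each foot range lay below each back range for both genes, with the extremes taken from the bounds of gene and Axin2 together. Notum had ratios of 0.106 and 0.0438 in the foot and 1.47 and 1.10 in the back, and Sp5 had 0.0448 and 0.00355 against 1.21 and 1.50. Znrf3 had 0.130 and 0.143 in the foot and 0.419 and 0.474 in the back. The Znrf3 ranges of the foot library labelled positive (0.0516 to 0.314) and the back library labelled positive (0.312 to 0.564) overlapped slightly. Nkd2 had the narrowest spread of these ratios, with 1.26 and 1.32 in the foot and 1.58 and 2.69 in the back, positive label first. A ratio of this kind shows unequal differences between genes and not which of them differed.

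**Figure D2:**
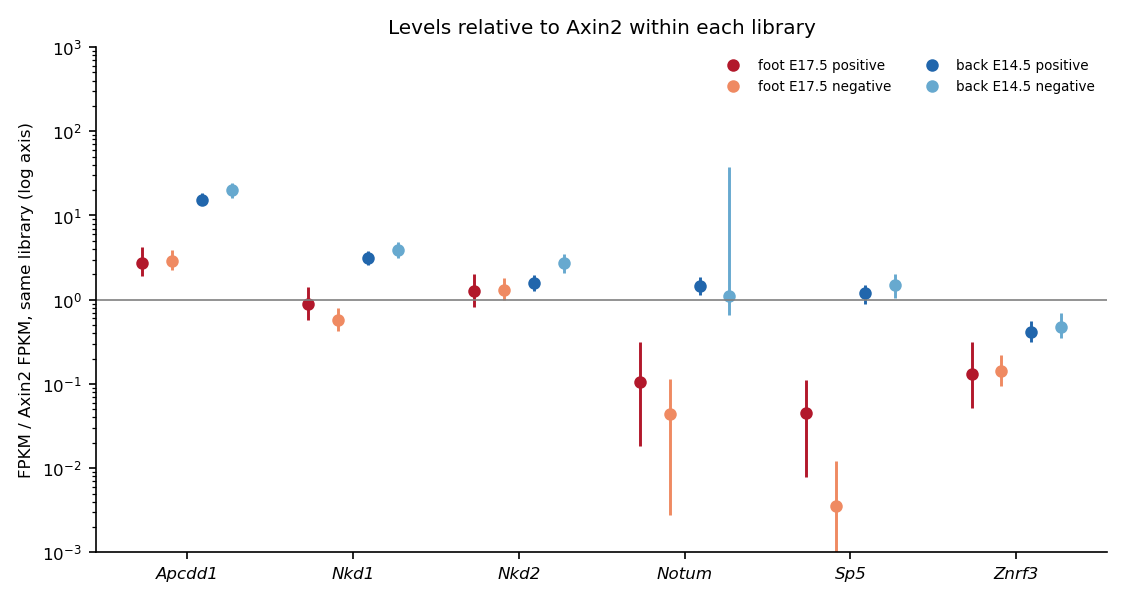
FPKM of 6 genes divided by the Axin2 FPKM of the same library (vertical log axis), with points for the 4 libraries and lines for the range that the bounds of both genes allow. Apcdd1, Nkd1, Notum and Sp5 stood higher against Axin2 in the back than in the foot, and the line of Sp5 in the foot library labelled negative runs to 0, below the axis.

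Foot and back were then compared for the 8 genes together. For the libraries labelled positive, 6 genes passed the filter of 5 FPKM (Axin2, Nkd1, Nkd2, Notum, Apcdd1 and Sp5). Of these, 0 were at least 2-fold higher in the foot and 3 lower (Notum, Apcdd1 and Sp5), where 16.4% of 7826 genes tested were higher and 14.3% lower (21.3% and 11.4% as deposited). For all 6, the scaled bounds of foot and back did not overlap, against 55.1% of all genes tested. The median log2 ratio over the 6 genes past the filter was -1.20, beside 0.12 over all genes tested, which passed the same filter. Over all 8 genes, with those below the filter, it was -0.67. Notum and Sp5 passed the filter only through the back library, where they stood higher. They could therefore be counted only as lower, and the count of 3 and the median of -1.20 rest in part on the filter.

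For the libraries labelled negative, 4 genes passed the filter (Axin2, Nkd1, Nkd2 and Apcdd1). Axin2 was at least 2-fold higher in the foot (not so with upper quartile scaling), beside 15.1% of 7783 genes tested, and Nkd1 and Apcdd1 were lower, beside 12% (37.6% and 5.27% as deposited, where neither Nkd1 nor Apcdd1 remained 2-fold lower). All 4 had scaled bounds that did not overlap, against 61.6% of all genes. The median over the 4 genes past the filter was -0.48, beside 0.13 over all genes tested (0.14 beside 0.76 as deposited). Over all 8 genes, with those below the filter, it was -0.75. Both comparisons had Axin2 and Nkd2 above 0, and Nkd1, Notum, Znrf3, Apcdd1 and Sp5 below 0. Only Znrf3 under the negative label was above 0 as deposited. The comparisons share no library, but they set the same 2 skins and stages against each other and were scaled together. Their common directions are therefore not a replication. The keratinocyte, endothelial, mast cell and leukocyte markers and Rgs5 given above, and the depth, also differed between foot and back, and their part in these ratios was not tested.

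**Figure D3:**
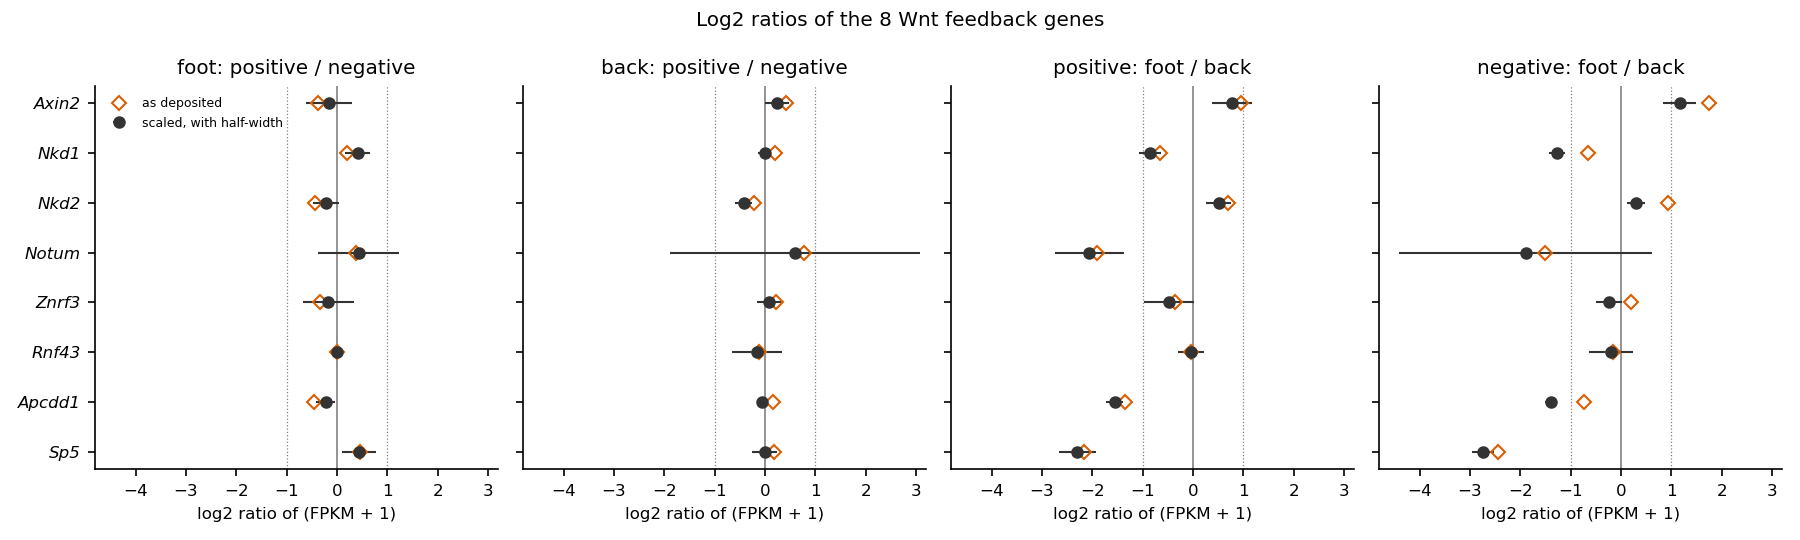
Log2 ratios of (FPKM + 1) for the 8 genes in 4 comparisons (horizontal axes), scaled with half-width (black) and as deposited (orange diamonds), with dotted lines at 2-fold. No gene reached 2-fold between the sorted fractions, while Sp5, Notum and Apcdd1 lay well below 0 in foot against back.

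Between the sorted fractions, no gene of the 8 reached 2-fold on this scale in either skin. The mast cell and leukocyte sums given above differed between the same fractions, and the part of these cells in these ratios was not tested. In the foot 4 passed the filter (Axin2, Nkd1, Nkd2 and Apcdd1), and 0 were counted as higher or lower, beside 21.7% of 8034 genes tested (8.4% higher and 15.4% lower as deposited, 10.7% and 11% scaled). Axin2 had a log2 ratio of -0.16 ± 0.45 and Nkd2 of -0.21 ± 0.26, both within their half-widths. Apcdd1 had -0.23 ± 0.18, with scaled bounds that overlapped. Nkd1 stood higher under the positive label, at 0.41 ± 0.25, the only one of the 4 whose scaled bounds did not overlap, against 37.7% of all genes tested. As deposited the Nkd1 ratio was 0.20 and its bounds overlapped, while those of Nkd2 (-0.44) and Apcdd1 (-0.46) then did not, against 42.8% of all genes tested. The median over the 4 genes past the filter was -0.19, beside -0.02 over all genes tested. Over all 8 genes, with those below the filter and with Rnf43 at 0, it was -0.08.

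Sp5 and Notum could not be compared firmly between the foot fractions. Sp5 was 9.47-fold higher in FPKM under the positive label, where the lower bound implies about 6.67 fragments, but its bounds overlapped. On the log2 scale its ratio was 0.44 ± 0.34, and 1.89 with 0.1 FPKM in place of 1 as the added value. Notum had 0.43 ± 0.80.

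In the back 5 genes passed the filter (Nkd1, Nkd2, Notum, Apcdd1 and Sp5), and 0 were counted, beside 8.29% of 6746 genes tested (6.02% higher and 3.01% lower as deposited, 4.36% and 3.93% scaled). Axin2, at under 5 FPKM, had a log2 ratio of 0.24 ± 0.25 toward the positive label. Its bounds did not overlap as deposited but did after scaling. Nkd2 stood lower under the positive label at -0.42 ± 0.17, the only one of the 5 with scaled bounds apart, against 40.9% of all genes tested. Apcdd1 (-0.07 ± 0.07), Nkd1 (-0.01 ± 0.12) and Sp5 (-0.01 ± 0.26) lay near 0 after scaling and at 0.16, 0.20 and 0.18 as deposited, so their sign depends on the scaling. As deposited the bounds of Nkd1 and Apcdd1 did not overlap and those of Nkd2 did, against 46% of all genes tested with bounds apart. Notum had 0.60 ± 2.48, a width set by its upper bound under the negative label. The median was -0.01 over the 5 genes past the filter and also over all 8, beside -0.03 over all genes tested.

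The difference between the sort ratios of foot and back asks whether the reporter label separates feedback genes differently in the 2 skins. Of 6 genes that passed the filter, 0 differed by 2-fold or more, beside 27.1% of 8628 genes tested (8.44% higher and 23.8% lower as deposited, 13.1% and 14.1% scaled). Nkd1 had a difference of 0.42 ± 0.28 and Sp5 of 0.44 ± 0.42, both beyond their half-widths. As deposited that of Nkd1 was 0.00 and that of Sp5 was 0.27 ± 0.44, both within their half-widths. The share of all genes beyond their half-widths is not given here. Axin2 had -0.40 ± 0.51. The mast cell and leukocyte markers and the depth of the foot libraries stand beside these values too.

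The genes nearest to Axin2 over the 4 libraries were sought among 6483 coding genes that reached 1 FPKM in all 4 libraries. The measure was the Euclidean distance between the 4 centred values of log2 (scaled FPKM + 1). Nearest were Cyp20a1 (distance 0.053), which encodes a cytochrome P450, Rabac1 (0.056), Recql (0.064), which encodes a DNA helicase, Slc35b1 (0.10) and Arsk (0.10). Of the feedback genes, Nkd2 came 1224th at a distance of 0.73, Znrf3 3863rd at 1.33, Nkd1 5896th at 2.07 and Apcdd1 6244th at 2.45. Nkd1 and Apcdd1 lay closer to each other, at 0.62. The 3 genes nearest to Nkd1 were Prrc2a, Ttll12 and Kpna2, and those nearest to Nkd2 were BC029722, Rcn1 and Dtd1. For Apcdd1 they were Actr1b, Thoc3 and Ldha, and for Znrf3 Stk11ip, Eif1a and Eaf1. Notum, Rnf43 and Sp5 were under 1 FPKM in at least 1 library and had no such list. With 4 libraries, close profiles are a description only.

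Other genes of the pathway were read beside the feedback genes they work with. The list counts stand beside 16.4% higher and 14.3% lower among all genes tested under the positive label, and 15.1% and 12% under the negative label. In the destruction complex, in which Axin2 acts, of 6 and 7 genes past the filter under the positive and negative label, 0 were higher in the foot and 1 lower. That gene was Gsk3a, a kinase of the complex, at -1.17 ± 0.38 and -1.04 ± 0.23, and it was under 2-fold as deposited under both labels. Axin1, the paralogue of Axin2, stood at 1.91 and 3.31 FPKM in the foot, positive label first and 4.04 and 4.36 FPKM in the back. Axin2 thus exceeded Axin1 in both foot libraries, with bounds apart. In the back they overlapped under the positive label, and Axin1 stood above Axin2 under the negative label, at 3.78 to 5.51 FPKM against 2.63 to 3.64 FPKM. Among 3 Dishevelled and Dact genes past the filter under the positive label, Dact1, a Dishevelled binder, was higher in the foot (1.35 ± 0.28) and Dvl3 lower (-1.29 ± 0.50). Under the negative label Dvl3 was the 1 gene of the list past the filter and stood on the other side, at 0.31, with 8.01 FPKM in the foot against 3.88 FPKM in the back.

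The R-spondins and their Lgr receptors, which block Znrf3 and Rnf43, differed between the skins by gene. Rspo1 was lower in the foot, at -2.53 ± 0.70 under the positive and -3.13 ± 0.42 under the negative label on the log2 scale. Lgr4 was higher, at 11.0 and 26.9 FPKM in the foot against 2.26 and 1.46 FPKM in the back, with log2 ratios of 1.70 ± 0.31 and 2.97 ± 0.24. Of this list 1 of 3 genes past the filter was higher and 1 lower under the positive label, and 3 of 4 were higher (Lgr4, Rspo2 and Rspo3) and 1 lower under the negative label. Of the Frizzled and Lrp receptors, 1 of 3 was higher under the positive label (Lrp6, 1.11 ± 0.23) and 0 of 4 under the negative label (2 as deposited), with 0 lower in both. Genes for Wnt acylation, export and glypicans handle the lipid-bearing ligand that Notum acts on. Of these, 1 of 5 past the filter was higher under the negative label (Gpc6, 1.08 ± 0.19), and 0 of 4 under the positive label, with 0 lower in both. Porcn, which encodes the enzyme that adds the lipid, stayed between 0.125 and 1.42 FPKM.

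Secreted Wnt antagonists, which act on ligand or receptor outside the cell, lay on both sides in each pair. Under the positive label 3 of 9 genes past the filter were higher in the foot and 3 lower, and under the negative label 3 were higher and 2 lower (4 and 1 as deposited). Nuclear TCF/LEF factors were lower for 1 of 4 genes under the positive label (Tcf7l1, -1.41 ± 1.37) and for 3 of 4 under the negative label (Lef1, Tcf7l1 and Tcf7). As deposited the negative label had 1 lower (Lef1) and 1 higher, which was Tcf7l2 at 14.6 FPKM in the foot against 5.64 FPKM in the back. Among 8 other Wnt target genes past the filter, 1 was higher (Cd44) and 2 lower (Myc and Tnfrsf19) under the positive label, with a median of -0.43. Under the negative label Cd44 was again higher and 4 were lower (Tnfrsf19, Myc, and Lef1 and Tcf7, which are in both lists; 3 as deposited), with a median of -0.85. Tnfrsf19, a receptor gene, had log2 ratios of -1.29 ± 0.35 and -2.49 ± 0.28, on the same side as Apcdd1, Nkd1, Notum and Sp5.

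**Figure D4:**
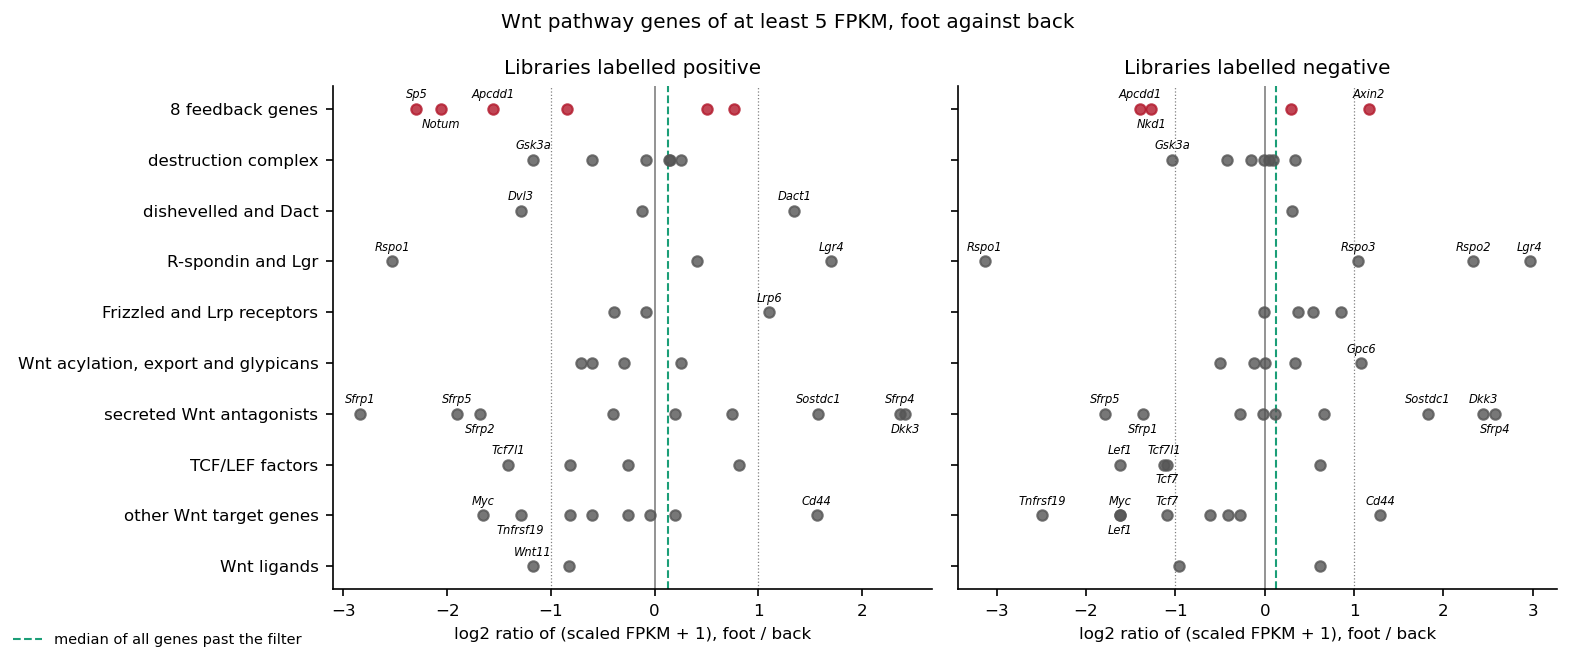
Log2 ratios of (scaled FPKM + 1), foot against back (horizontal axes), for the feedback genes (red) and other Wnt pathway lists (grey) with a larger FPKM of at least 5, under each label. Dotted lines mark 2-fold and the dashed line the median of all genes past the filter, and in most lists genes lie on both sides of it.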

How the data were processed

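The authors aligned reads with TopHat and made gene tables with Cufflinks on mm9, per the submitters' processing notes. Per the file headers, the deposited unit is FPKM, each value with 2 bounds and a status. Versions, settings and annotation were not given in the sources used here. Sorted cells went into Trizol-LS and TrueSeq mRNA libraries, per the labels' protocols.

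Entries of the same symbol were summed (Python 3.11.15, pandas 2.3.3). In 1 deposited file, 22 symbols altered to dates were restored. Units missing from a table or with a status other than OK were left out (1400 of 33833). Scaling factors were medians over 3111 coding genes of at least 5 FPKM in every library (1.08, 1.27, 0.924 and 0.791 for the foot and then the back, positive label first). The added value was 1 FPKM. The calculation was tested on simulated data. Coding status came from GENCODE vM21 by symbol, promoters from RefSeq.

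Fragment numbers implied by bounds assume bounds of 2 standard deviations, so they are approximate. The members and lists were chosen with earlier results of these data known. Named were all 8 members and the 5 genes nearest to Axin2 or 3 nearest to others. Of the list genes at least 2-fold apart, some were named (up to 4 per list and comparison) and others were not. Axin1, Porcn, Tcf7l2, Wnt4, Wnt5b, Wnt10a, the loci inside gene intervals and the merged keratin entries were chosen after their values were seen.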

Additional observations from a re-analysis of the deposited data

How the results depend on the processing

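No paired analysis was possible because each group holds 1 library, and no library could be left out for the same reason. Counts of feedback genes past 2-fold between the foot fractions, and between foot and back under the positive label, moved under none of the alternatives by more than 1.5 times. Foot against back under the negative label depended most on the processing. There the count of lower genes went from 2 to 0 with FPKM as deposited and to 4 with a minimum of 1 FPKM, and the count of higher genes from 1 (Axin2) to 0 with upper quartile scaling, which removed 0.99 in place of 0.69. The median over the 8 genes in that comparison went from -0.75 to -0.41 as deposited, -0.99 with upper quartile scaling and -1.35 with an added value of 0.1 FPKM. With the midpoint of the bounds in place of the FPKM, 1 gene (Notum) became lower between the back fractions and 1 higher in the difference of the sort ratios. With an added value of 0.1 FPKM, 1 gene (Sp5) became higher in that difference. Each of these counts was 0 otherwise. Of 40 single log2 ratios, 5 changed sign as deposited, 2 with the midpoint, 1 with 0.1 FPKM, and 0 with upper quartile scaling or with the highest entry per symbol; no ratio past 2-fold did. Depth limits Notum, Sp5, Rnf43 and Znrf3 in the foot.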

Other observations

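The Wnt ligand genes were mostly low in these libraries, and 2 of 19 passed the filter of 5 FPKM in each comparison. Wnt5a, a ligand known mainly for signalling without beta-catenin, stood at 16.7 FPKM and 43.1 FPKM in the positive and negative foot libraries. Its log2 ratio there was -1.07 ± 0.26. In the back it stood at 26.1 FPKM and 17.1 FPKM, and its difference of sort ratios was -1.44 ± 0.28. Wnt4 stood at 0.262 FPKM and 0.869 FPKM in the foot and at 4.23 FPKM and 4.32 FPKM in the back, so it was higher in the back, as Sp5 and Notum were, but below the filter. Other ligands below the filter went the other way. Wnt5b stood at 1.62 and 3.25 FPKM in the foot against 0.673 and 0.529 FPKM in the back. Wnt10a stood at 1.09 and 0.421 FPKM against 0.384 and 0.104 FPKM. The part of the keratinocyte markers given above in these ligand values was not tested.

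Btrc, which encodes the ubiquitin ligase subunit that recognises phosphorylated beta-catenin, was at least 2-fold apart between the sorted fractions in both skins. It stood at 2.74 FPKM against 13.4 FPKM in the foot and 2.86 FPKM against 7.99 FPKM in the back, lower under the positive label each time. The log2 ratios were -1.70 ± 0.38 and -1.44 ± 0.29. Among all genes tested, 11% were at least 2-fold lower under the positive label in the foot and 3.93% in the back. Lef1, a TCF/LEF factor, was higher under the positive label in the foot, at 1.21 ± 0.38, and its difference of sort ratios was 1.36 ± 0.42 (0.99 as deposited, just under 2-fold). Further pathway list genes past 2-fold between the foot fractions were Dact1 (1.26 ± 0.32), Dvl3 (-1.30 ± 0.68) and Fzd3 (-1.06 ± 0.60). Between the back fractions Sfrp2 was past 2-fold (1.51 ± 0.12).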
